A study of Mus musculus with 5 samples.

Results

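Cytochrome c oxidase, complex IV of the respiratory chain, passes electrons from cytochrome c to oxygen and pumps protons across the inner mitochondrial membrane. Its catalytic core is encoded by mitochondrial DNA (mtDNA), and the subunits around the core are encoded in the nucleus. Several nuclear subunits exist in a form found in most tissues and a second form that skeletal muscle and heart use. The 10 genes described here were taken by name from 17015 rows of the deposited table, and all 10 had a row. They are Cox4i1 and Cox4i2, Cox5a, Cox5b, Cox6a1 and Cox6a2, Cox7a1 and Cox7a2, and Cox8a and Cox8b. The muscle isoforms are Cox6a2, Cox7a1 and Cox8b, and they were set against the other 7 genes, and each against its ubiquitous partner.

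RNA-seq was performed on tibialis anterior (TA), a fast-twitch muscle of the lower leg, from male mice at 8 weeks of age. The nuclear receptor coregulator RIP140 is encoded by Nrip1. The skmNrip1-/- line came from floxed Nrip1 mice (C57BL/6J) bred with C57BL/6JN mice that carry a Cre recombinase driven by the myogenin promoter. Deletion is thus directed at the muscle cells, and the other cell types of the TA keep the gene. Littermates without Cre served as WT control. There were 3 WT control libraries and 2 with the label skmNrip1-/-, and the labels do not name the animals, so p-values measure the spread between libraries.

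Values are FPKM (fragments relative to transcript length, scaled between libraries by the authors), and absolute depth is unknown. The median-of-ratios factor (the median over genes of a library's value over the gene's geometric mean) was the same, 1.0017, for every library. The FPKM sums ran from 969144 to 1288038. The deposited values were therefore already level between libraries by median of ratios. Fragments counted in the whole muscle cannot tell fewer cells of a type from less RNA per cell. The targeted gene, Nrip1, had 4.64, 7.69 and 6.55 FPKM in WT control (replicates 1, 2 and 3, an order kept below) and 25.3 and 22.5 FPKM in the libraries labelled skmNrip1-/- (replicates 1 and 2). It was therefore higher where the label says knockout, by 1.94 on the log2 scale (95% interval 1.43 to 2.45, limma adjusted p = 0.0261). That call was lost without WT control replicate 3 (adjusted p = 0.114 from limma), without labelled replicate 1 (adjusted p = 0.189) and without labelled replicate 2 (adjusted p = 0.143). The paper checked this line by Nrip1 expression and RIP140 protein in gastrocnemius and heart, and shows no such check in TA. Its loxP sites lie around the exon that holds the start and stop codons. The FPKM are per gene and do not show which exons the fragments came from, so the source of the Nrip1 difference was not tested. Every direction below rests on the labels, and labelled libraries means those labelled skmNrip1-/-. The fast-muscle markers Ckm and Myh4 were at 10393 to 16980 FPKM and 6416 to 8478 FPKM over the libraries, as the tissue label states.

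The sequences around the gene starts are shown here for muscle and ubiquitous forms, because these forms sit at very different levels in TA. RefSeq promoter windows of 300 bases (250 before to 50 after the start, build GRCm38.p6) were matched for 7 of the 10 genes. Cox6a2, Cox4i1 and Cox4i2 had no window, so Cox8b and Cox7a1 alone stand for the muscle isoforms. The stretches below run 5′ to 3′ on the gene's strand, from 90 bases before the start to 30 after it. Capitals mark matches, on either strand, to an ETS core, an E-box, a TATA box, a CCAAT box or a GC box, whose letters are given after the sequences.
Cox8b, muscle, chr7:140900417-140900536, minus strand: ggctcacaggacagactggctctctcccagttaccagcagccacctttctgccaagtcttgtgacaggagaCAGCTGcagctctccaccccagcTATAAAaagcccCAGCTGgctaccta
Cox8a, ubiquitous, chr19:7217587-7217706, minus strand: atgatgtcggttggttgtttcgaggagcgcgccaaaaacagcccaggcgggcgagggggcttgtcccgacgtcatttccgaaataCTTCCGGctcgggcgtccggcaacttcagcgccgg
Cox7a1, muscle, chr7:30184081-30184200, plus strand: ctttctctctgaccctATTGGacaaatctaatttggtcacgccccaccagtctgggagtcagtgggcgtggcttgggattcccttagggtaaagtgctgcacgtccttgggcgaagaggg
Cox7a2, ubiquitous, chr9:79759824-79759943, minus strand: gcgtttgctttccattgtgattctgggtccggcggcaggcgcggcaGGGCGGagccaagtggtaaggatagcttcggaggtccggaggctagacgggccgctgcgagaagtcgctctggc
Cox6a1, ubiquitous, chr5:115348929-115349048, minus strand: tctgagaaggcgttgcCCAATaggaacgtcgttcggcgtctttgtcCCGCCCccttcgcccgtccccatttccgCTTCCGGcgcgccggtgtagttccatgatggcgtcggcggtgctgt

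The muscle gene Cox8b held 2 CpG dinucleotides in its 300-base window, and Cox7a1 held 7. The ubiquitous genes held more, with 19 in Cox8a, 20 in Cox7a2, 32 in Cox6a1, 27 in Cox5b and 35 in Cox5a. Over all 32851 windows the median was 7 and the upper quartile 20. CAGCTG, the E-box that myogenic factors favor, occurred 19 bases before and 17 bases after the start of Cox8b, and in 16.3% of all windows. TATAAA occurred 5 bases after the annotated Cox8b start, and in 13.6% of all windows. CCGGAAG, the ETS core, read on the other strand, lay 5 bases before and 33 bases after the Cox8a start and 16 bases before the Cox6a1 start, and 8.86% of all windows hold it. GGGCGG, the GC box (35.7% of windows), lay 44 bases before the start in both Cox7a2 and Cox6a1. It also lay 139 bases before the Cox6a1 start, and 13 bases before and 37 bases after the Cox5a start. CCAAT (37.4% of windows) lay 74 bases before the start in both Cox7a1 and Cox6a1. Further matches lay 137 bases before the Cox7a1 start and 171 bases before the Cox8a start. AAGGTCA, the core letters of estrogen-related receptor sites, was in none of the 7 windows and in 4.72% of all windows. These matches describe letters and not bound sites.

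The first question was which isoform each subunit is made from in TA. In every library the muscle isoform exceeded its ubiquitous partner. Cox8b, the muscle form of the smallest nuclear subunit, had 1487, 1102 and 1234 FPKM in WT control and 1528 and 1366 FPKM in the labelled libraries. Its partner Cox8a had 59.0, 44.6 and 53.6 FPKM and then 66.6 and 61.4 FPKM, so Cox8b supplied 96.0% ± 0.180 (SD, n = 3) of the pair's FPKM in WT control TA. Cox6a2, the muscle form of a subunit at the dimer face of the enzyme, had 1045, 799 and 972 FPKM in WT control and 1097 and 980 FPKM in the labelled libraries. Cox6a1 had 70.0, 60.2 and 75.7 FPKM and then 64.5 and 57.3 FPKM, which left Cox6a2 with 93.2% ± 0.493 (SD, n = 3) of the pair in WT control TA. The subunit 7a pair was the least one-sided of the muscle pairs.

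Cox7a1, the muscle form of subunit 7a, had 1385, 935 and 1212 FPKM in WT control and 1381 and 1266 FPKM in the labelled libraries. Cox7a2 had 253, 195 and 230 FPKM and then 277 and 238 FPKM, and the Cox7a1 share was 83.8% ± 0.95 (SD, n = 3) in WT control TA. Subunit 4 ran the other way, since its widely expressed form dominates in muscle. Cox4i1 had 1510, 1260 and 1416 FPKM in WT control and 1738 and 1667 FPKM in the labelled libraries. Cox4i2, best known from lung, had 2.52, 2.31 and 2.45 FPKM and then 2.05 and 2.32 FPKM, so Cox4i1 exceeded it by 544-fold to 848-fold. Cox4i2 was the only member below 10 FPKM in any library.

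**Figure D1:**
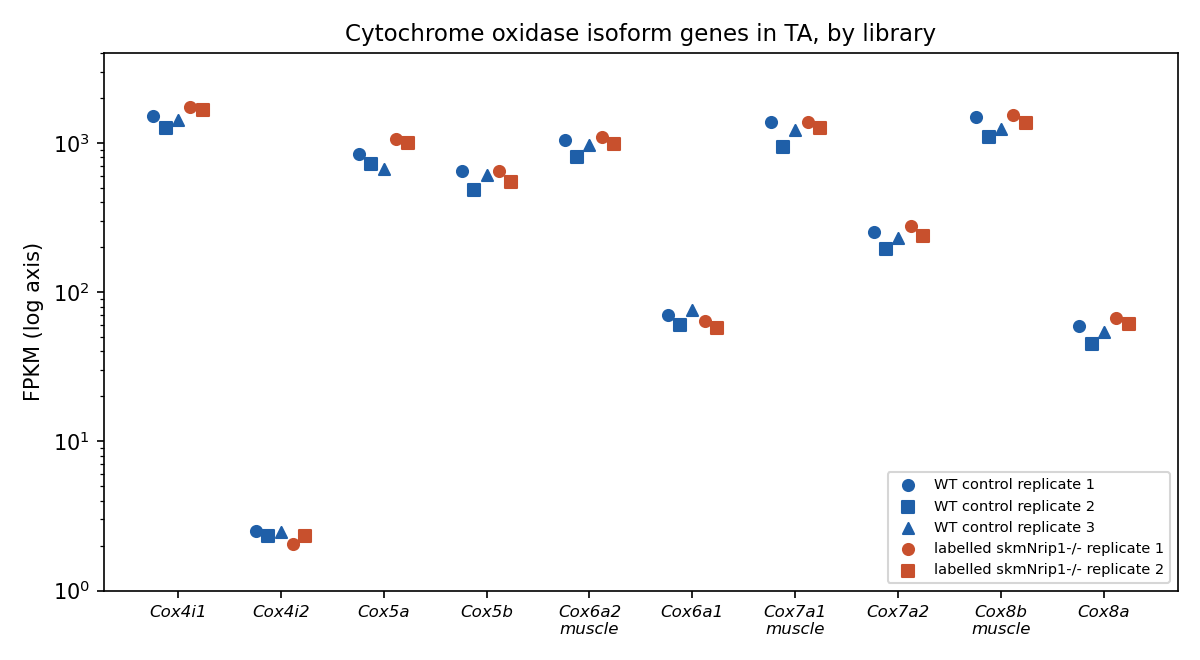
FPKM of the 10 genes (x axis, grouped by subunit) on a log axis, with 1 point per library, WT control in blue and labelled skmNrip1-/- in orange, and marker shape giving the replicate number. Cox6a2, Cox7a1 and Cox8b lie above their partners in all 5 libraries, and Cox4i2 lies near 2 FPKM.

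Ordered by mean FPKM in WT control TA, the genes ran Cox4i1, Cox8b, Cox7a1, Cox6a2, Cox5a, Cox5b, Cox7a2, Cox6a1, Cox8a and Cox4i2. Neighbors among the first 5 had overlapping ranges in the WT control libraries, although within each library the order held in all 3. From Cox5a down, each gene's WT control range lay above that of the next gene. In the labelled libraries the order was the same except that Cox8a (61.4 and 66.6 FPKM) passed Cox6a1 (57.3 and 64.5 FPKM), and those ranges overlapped. Cox5a also came level with Cox6a2, which was above it in 1 of the 2 labelled libraries. Summed over isoforms, the subunits had WT control means from 581 ± 88.9 FPKM for subunit 5b to 1403 ± 256 FPKM for subunit 7a (SD, n = 3).

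The second question was whether these genes differ between the groups. With limma, no member met the thresholds of 0.05 for the adjusted p-value and 1.2 for the fold, where 0.453% of the 12148 tested genes were called (0.37% higher and 0.0823% lower). Before adjustment, Cox5a alone of the 10 was within 0.05, as were 11.9% of tested genes. The log2 fold change was above 0 for 8 members and below 0 for Cox4i2 and Cox6a1, with a median of 0.19 against 0.00 over all tested genes, of which 49.9% were above 0. In 3 members, Cox5a, Cox4i1 and Cox8a, both labelled libraries lay above every WT control library, a pattern found in 15.8% of tested genes, and no member lay wholly below (14.4% of tested genes). Counted in either direction, 3 of 10 members and 30.2% of tested genes did not overlap.

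Cox5a, a single-form subunit facing the matrix, differed most. It had 838, 726 and 671 FPKM in WT control and 1065 and 1002 FPKM in the labelled libraries. The group means were 745 ± 85.2 FPKM (SD, n = 3) and 1033 ± 44.1 FPKM (SD, n = 2), a ratio of 1.39, and the groups did not overlap. The log2 fold change was 0.48 (95% interval 0.15 to 0.81 before adjustment), with an adjusted p of 0.264 from limma. Over the alternatives tried, the log2 fold change of Cox5a stayed between 0.18 and 0.56, and its adjusted p from limma between 0.118 and 0.785.

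Cox5b, the other single-form subunit, which binds zinc, gave no such separation. It had 650, 480 and 612 FPKM in WT control and 643 and 549 FPKM in the labelled libraries, so the groups overlapped. Its log2 fold change was 0.04 (95% interval -0.35 to 0.44), and the sign turned without WT control replicate 2 (-0.09) and without labelled replicate 1 (-0.07). Within a library, the ratio of Cox5a to Cox5b was 1.29, 1.51 and 1.097 in WT control and 1.66 and 1.83 in the labelled libraries. The ratio of Cox5a to Cox4i1 was 0.555, 0.577 and 0.474 and then 0.612 and 0.601. The ratio of Cox4i1 to Cox5b, without Cox5a, was 2.32, 2.62 and 2.31 and then 2.70 and 3.04. All these ratios were higher in each labelled library than in any WT control library, and none depends on the scaling between libraries. These ratios were chosen with the values in view and were not tested.

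Cox4i1, the main form of the subunit that binds ATP, had group means of 1395 ± 126 FPKM (SD, n = 3) and 1702 ± 50.7 FPKM (SD, n = 2). Its log2 fold change was 0.29 (95% interval -0.03 to 0.61, adjusted p = 0.468 from limma). Cox4i2 had a log2 fold change of -0.15 (95% interval -0.49 to 0.19), and its lowest WT control library, at 2.31 FPKM, was level with labelled replicate 2, at 2.32 FPKM. The log2 ratio of Cox4i2 to Cox4i1 was -9.11 ± 0.07 (SD, n = 3) in WT control and -9.54 ± 0.16 (SD, n = 2) in the labelled libraries, and the groups did not overlap. An exact two-sided permutation test over the 10 possible assignments gave p = 0.1 for this difference, the smallest that this design can give.

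The muscle isoforms gave values close to each other and within the spread of the libraries. Their log2 fold changes were 0.15 for Cox6a2 (95% interval -0.22 to 0.52), 0.19 for Cox7a1 (95% interval -0.26 to 0.63) and 0.19 for Cox8b (95% interval -0.20 to 0.58). In all 3, the labelled libraries overlapped WT control, and the adjusted p from limma was 0.721 to 0.772. Their ubiquitous partners gave -0.17 for Cox6a1 (95% interval -0.48 to 0.15), 0.19 for Cox7a2 (95% interval -0.16 to 0.54) and 0.30 for Cox8a (95% interval -0.04 to 0.63). The adjusted p of the partners was 0.482 to 0.693 from limma. The intervals of all 6 genes included 0, and they are wide enough that a difference was not excluded in any of them.

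The direct comparison of muscle with ubiquitous isoforms used the ratio of FPKM within a library, which the scaling between libraries does not touch. It did not go 1 way across the pairs. The ratio of Cox6a2 to Cox6a1 was 14.9, 13.3 and 12.8 in WT control and 17.0 and 17.1 in the labelled libraries, so both labelled libraries were higher. The ratio of Cox8b to Cox8a was 25.2, 24.7 and 23.0 in WT control and 23.0 and 22.2 in the labelled libraries, with both labelled libraries lower, the first by less than the last printed digit. The ratio of Cox7a1 to Cox7a2 was 5.47, 4.79 and 5.28 and then 4.99 and 5.32, and the groups overlapped.

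On the log2 scale, labelled minus WT control was 0.32 for the subunit 6a pair, -0.01 for the subunit 7a pair and -0.10 for the subunit 8 pair. Exact two-sided permutation tests gave p = 0.2, p = 1 and p = 0.2 for these pairs. After Benjamini-Hochberg adjustment over 4 pairs, subunit 4 included, the values from these exact tests were 0.267, 1 and 0.267, and 0.267 for subunit 4. As shares of the pair, Cox6a2 went from 93.2% ± 0.493 (SD, n = 3) to 94.5% ± 0.0180 (SD, n = 2), and Cox8b from 96.0% ± 0.180 to 95.8% ± 0.0902. Cox7a1 had 83.8% ± 0.95 and 83.7% ± 0.613. The muscle isoform thus supplied most of each pair in both groups, and no pair's shift passed its test, in a design that could not go below 0.1.

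**Figure D2:**
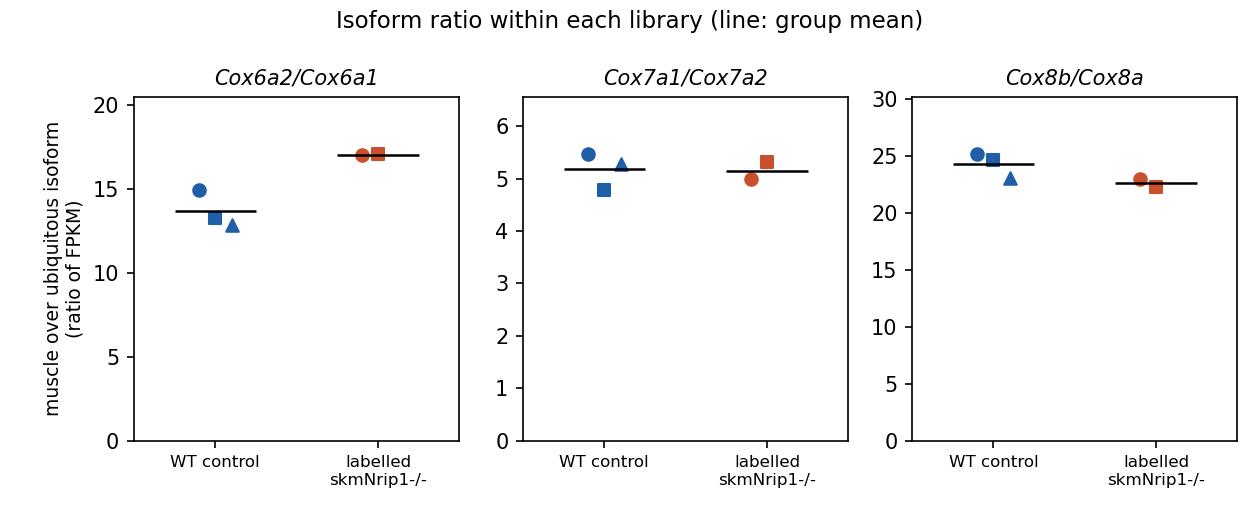
Ratio of muscle to ubiquitous isoform FPKM (y axis, from 0) for the 3 muscle pairs, with 1 point per library (marker shape is the replicate number) and a line at the group mean. The labelled libraries lie above WT control for Cox6a2/Cox6a1 (17.0 and 17.1 against 12.8 to 14.9), among them for Cox7a1/Cox7a2, and at or below the lowest for Cox8b/Cox8a.

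The WT control libraries also differed among themselves. WT control replicate 2 was the lowest of the 5 libraries for 7 of the 10 members, against 17.1% of all tested genes. On the log2 scale centered on each gene's mean, the median member was at 0.10, -0.28 and -0.03 in WT control and at 0.19 and 0.02 in the labelled libraries. Without WT control replicate 2, the median over the members was 0.07 rather than 0.19, and the log2 fold changes of Cox6a2, Cox7a1, Cox8b and Cox8a were 0.04, 0.03, 0.09 and 0.18. Without WT control replicate 1 the values moved the other way, to a median of 0.29 and to 0.23 for Cox6a2, 0.31 for Cox7a1 and 0.31 for Cox8b. Of the labelled libraries, leaving out replicate 1 gave a median of 0.10 and leaving out replicate 2 gave 0.26. Cox5a and Cox4i1 moved less without WT control replicate 2, to 0.46 and 0.22.

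These genes have short messenger RNAs, and short transcripts as a class varied between the libraries. For each member, the annotated transcript with the longest coding sequence was taken, and which transcript is the main one in TA was not examined. These run from 360 nucleotides for Cox8b to 865 for Cox5b. Among 633 tested genes with a longest transcript over 500 and up to 1000 nucleotides, the median centered log2 value was 0.22, -0.17 and 0.02 in WT control and 0.03 and -0.08 in the labelled libraries. In this class fall 7 members by their longest transcript. The tested genes of up to 500 nucleotides, with Cox7a1 and Cox8b among them, had medians of 0.23, -0.18 and -0.02 and then 0.10 and 0.01. The median log2 fold change was -0.05 in the first class and 0.10 in the shorter one. Among genes of these classes with a mean of at least 50 FPKM, the medians were -0.02 (190 genes) and 0.0005 (30 genes). Cox5a falls in neither class, since its longest annotated transcript has 1818 nucleotides. WT control replicates 1 and 2 therefore deviated in the same directions in both classes as the median member did. When a transcript length trend was removed from each library, the log2 fold changes were 0.51 for Cox5a (adjusted p = 0.118 from limma), 0.33 for Cox4i1 and 0.31 for Cox8a, and no member was called. This adjustment was added after the values were seen, and the part of transcript length in the results was not otherwise tested.

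**Figure D3:**
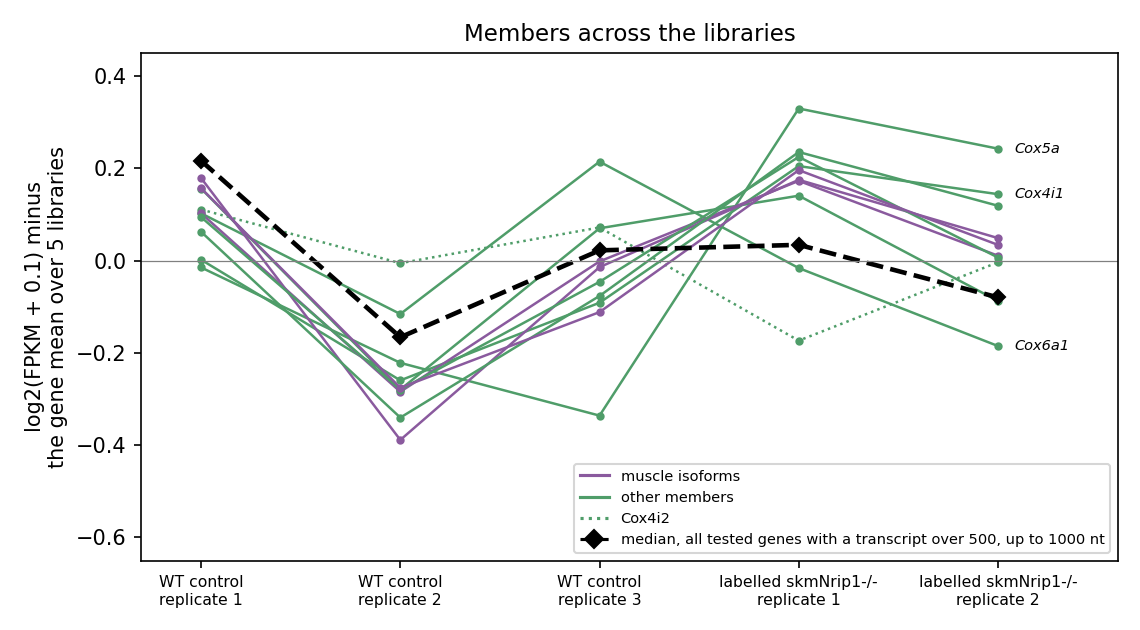
Value of each member in each library (x axis) as log2(FPKM + 0.1) minus the gene's mean over the 5 libraries, with lines joining the points of a gene and implying no order, purple for muscle isoforms and green for the others (dotted for Cox4i2). The dashed black line is the median of tested genes with transcripts over 500 and up to 1000 nucleotides, and WT control replicate 2 is low for most members (median -0.28) and for that class (-0.17), while Cox5a stands above both in the labelled libraries.

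The scaling between libraries also sets the sign of most values. The mtDNA-encoded genes took 45.4% to 50.7% of the FPKM sum in WT control and 58.6% and 60.9% in the labelled libraries. Rescaling each library to a common sum (TPM) brought the median over all tested genes to -0.29 on the log2 scale. On that scale Cox5a alone stayed above 0, at 0.18, and the other 9 members were below 0. Relative to the median of all genes, 8 of 10 members were above on either scale, with Cox5a at 0.48 as deposited and 0.47 after rescaling. Rescaling moves all genes of a library by the same factor. This agreement was therefore fixed in advance, apart from the pseudocount and the FPKM minimum.

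The other genes of the oxidase were read from lists. Of 9 other nuclear subunits, 6 passed the FPKM minimum, all 6 had a log2 fold change above 0 (median 0.21) and none was called. They ran from 0.07 for Cox6b1, the subunit that bridges the dimer, to 0.33 for Ndufa4, a subunit once placed in complex I. Ndufa4 had 1065, 849 and 785 FPKM in WT control and 1147 and 1091 FPKM in the labelled libraries, which did not overlap. After rescaling to TPM, 5 of the 6 were below 0, from -0.23 for Cox6b1, and Ndufa4 was at 0.03. All 6 stayed above the median of all genes, which a factor common to all genes of a library fixes in advance. Cox6b1 was also below 0 without labelled replicate 1 (-0.02). Cox6b2, better known from testis, did not pass the minimum, at 0.190 to 0.889 FPKM. Cox7b2 and Cox8c were not analysed here.

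The mtDNA-encoded catalytic subunits form the core that the nuclear subunits surround. Over mt-Co1, mt-Co2 and mt-Co3 the median log2 fold change was 0.46, and in all 3 the labelled libraries lay above every WT control library, as in 15.8% of tested genes. mt-Co2, which receives electrons from cytochrome c, had 45021, 32656 and 35956 FPKM in WT control and 56111 and 58002 FPKM in the labelled libraries. Its log2 fold change was 0.60 (95% interval 0.03 to 1.18), with an adjusted p of 0.396 from limma, and mt-Co1 had the smallest value of these, 0.44. After rescaling to TPM, mt-Co2 was at 0.30 and mt-Co1 at 0.14, and all 3 stayed above 0. None of these was called either, and whether they differ from the nuclear subunits was not tested.

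**Figure D4:**
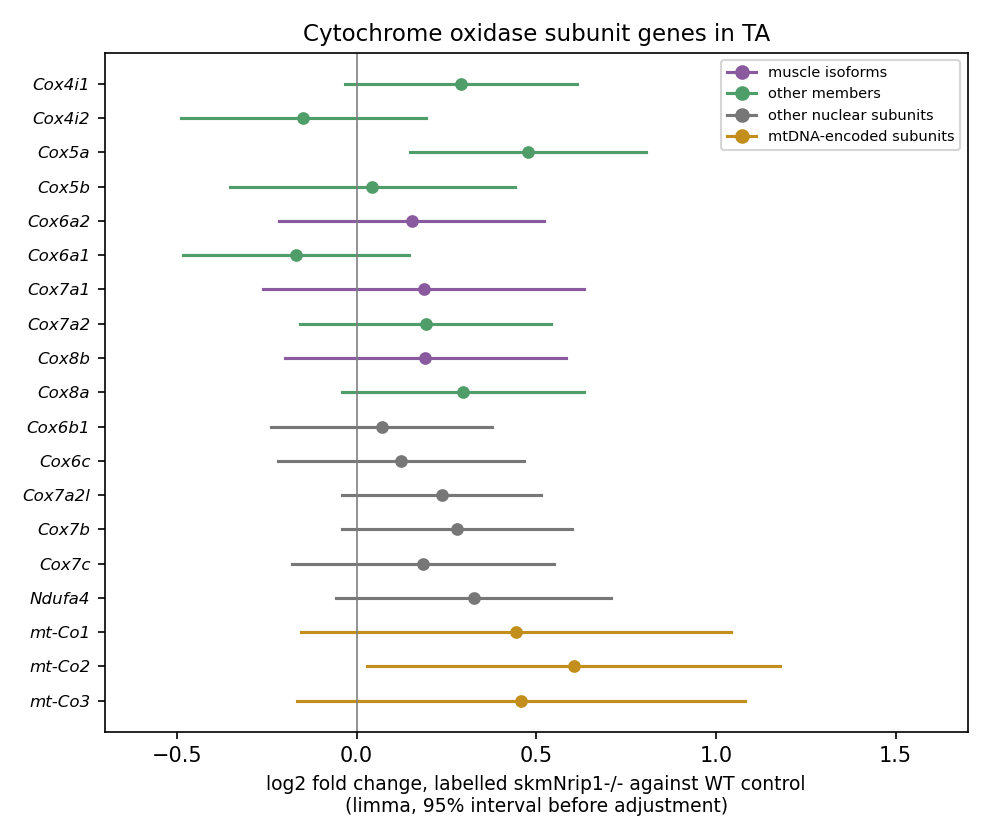
Log2 fold change of labelled skmNrip1-/- against WT control (x axis) for the 10 members, 6 other nuclear subunits and 3 mtDNA-encoded subunits, as points with 95% intervals from limma before adjustment. Only the intervals of Cox5a (0.15 to 0.81) and mt-Co2 (0.03 to 1.18) lie above 0, and no gene was called after adjustment.

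All 27 genes listed for assembly of the oxidase or for making its mtDNA-encoded subunits were tested, and none was called. The log2 fold change was above 0 for 15 and below 0 for 12, with a median of 0.08. The median was -0.01 without WT control replicate 2, 0.16 without WT control replicate 1, and -0.22 after rescaling to TPM, where 8 were above 0. Before adjustment 7 of the 27 were higher at p of 0.05 or less and 0 were lower, where 6.57% of tested genes were higher and 5.33% lower. The 7 were Cox10 and Cox11, which act in heme A synthesis and copper insertion, the copper chaperones Sco1 and Sco2, the COX1 translation activator Taco1, the mitochondrial RNA-binding protein gene Lrpprc, and Tmem177, and 6 of them are named because of these values.

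Cox11 came closest to the threshold, with 25.1, 24.7 and 27.0 FPKM in WT control and 40.7 and 40.5 FPKM in the labelled libraries. Its log2 fold change was 0.66 (95% interval 0.43 to 0.90), and its adjusted p was 0.0659 from limma, with a range over the alternatives of 0.0531 to 0.444. Sco2 had the largest value of the list, 0.67 (adjusted p = 0.271 from limma), from 2.78, 3.75 and 4.28 FPKM to 5.99 and 5.43 FPKM. Pet100, an assembly factor, had the smallest, -0.35, with overlapping libraries. Pet100 had 18.4, 12.4 and 18.3 FPKM in WT control and 13.8 and 11.6 FPKM in the labelled libraries.

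The genes whose profile over the 5 libraries lay nearest that of the muscle isoforms were sought among the 4549 genes whose mean was 10 FPKM or more. The measure was the root mean square difference of the centered log2 values. The nearest were Phpt1 (0.0167), Arpp19 (0.0253), Ptpmt1 (0.0307), Cox7c (0.0314) and Timm8b (0.0353). Cox7c is itself a nuclear subunit of the oxidase, and what the other near genes encode was not compared. Nearest to Cox6a1, Cox7a2 and Cox8a were Naxe (0.0170), Pmm1 (0.0190), Sbds (0.0243), Glrx3 (0.0249) and Glod4 (0.0275). These are descriptions over 5 libraries that share the low values of WT control replicate 2.

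Cox7a1, Cox8b and Cox6a2 also mark heart and brown fat, and Cox4i2 marks pericytes, so markers of other cells were read from the same libraries. Of 6 heart markers, 4 were in the table, with a summed level of 4.79 to 6.27 FPKM in WT control and 3.17 to 5.11 FPKM in the labelled libraries. Of 5 brown fat markers, 4 were in the table, summing to 3.90 to 9.17 FPKM and 9.03 to 9.66 FPKM, mostly from Ppara, which muscle also expresses, and Ucp1 was not analysed here. Cidea, of this list, was at 0.279 to 0.442 FPKM in WT control and 1.37 to 1.41 FPKM in the labelled libraries. The rest of the list in the table, Elovl3, Dio2 and Ppara, overlapped between the groups. The muscle isoforms were at 799 to 1528 FPKM in the same libraries, and what part of this came from other tissues was not tested. The 7 markers of fat in general summed to 133 to 202 FPKM, mostly from Fabp4, and to 158 to 163 FPKM.

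The 9 markers of pericytes and smooth muscle summed to 169 to 197 FPKM in WT control and 173 to 187 FPKM in the labelled libraries, and the 5 of endothelium to 74.4 to 81.1 FPKM and 67.8 to 76.2 FPKM. Those of blood, 5 genes, summed to 511 to 764 FPKM and 827 to 996 FPKM, which did not overlap, and those of nerve, 4 genes, to 16.8 to 25.6 FPKM and 13.8 to 21.7 FPKM. The 8 fast-muscle markers summed to 70828 to 94113 FPKM in WT control and 65671 to 68825 FPKM in the labelled libraries, which did not overlap, and the 7 slow-muscle markers to 112 to 316 FPKM and 122 to 124 FPKM. The slow-muscle sum was mostly Myl3, at 89.6 to 285 FPKM in WT control and 54.1 and 71.3 FPKM in the labelled libraries, while Myl2 was at 1.85 to 9.68 FPKM and then 42.1 and 33.6 FPKM. These myosin light chain genes did not overlap between the groups, in opposite directions, and the other slow-muscle markers overlapped. The heart marker Myh6 was at 1.78 to 2.71 FPKM in WT control and 1.64 and 0.866 FPKM in the labelled libraries, without overlap. Gene by gene, 3 of 8 fast-muscle, 2 of 7 slow-muscle, 4 of 5 blood and 2 of 4 nerve markers did not overlap. The same held for 1 of 4 heart markers, 1 of 4 brown fat markers (Cidea) and 0 of 7 markers of fat in general. Over all tested genes the share was 30.2%. Every marker of pericytes and smooth muscle and of endothelium overlapped. Of the markers in the table, 2 of 4 heart, 2 of 4 brown fat, 5 of 7 fat and 3 of 4 nerve genes passed the FPKM minimum. All markers of the other lists passed it. No tested marker was called, and those below the minimum could not be. No marker in the table was at 0 in all libraries, and the part of the markers' cells in the values of the oxidase genes was not tested.

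In GENCODE M21 (GRCm38), Cox6a2 (ENSMUSG00000030785, chromosome 7, 128205435 to 128206387), Cox7a1 (ENSMUSG00000074218, chromosome 7, 30184144 to 30186078) and Cox8b (ENSMUSG00000025488, chromosome 7, 140898945 to 140900446) all lie on chromosome 7. Their partners Cox6a1, Cox7a2 and Cox8a lie on chromosomes 5, 9 and 19. Cox5a (ENSMUSG00000000088) lies on chromosome 9, at 57521274 to 57532426, with 5 exons and a coding length of 438 nucleotides. Some members share sequence with other annotated genes, which could divide their fragments. Sharing was counted in 31-base words of each member's annotated transcript with the longest coding sequence. Of these words, 32.6% for Cox5b, 23.8% for Cox6a1, 16.3% for Cox5a and 4.13% for Cox7a2 also occur in transcripts of other genes. The levels of these genes are less certain. The gene sharing most with Cox5b, Gm11273, was at 0 to 1.26 FPKM. Cox4i1, Cox4i2, Cox6a2, Cox7a1, Cox8a and Cox8b share none with genes outside the members. Sharing between members, such as the forms of a pair, was left out of this count. Emc8, which overlaps Cox4i1 on the other strand, was at 6.86 to 9.16 FPKM.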

How the data were processed

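TA libraries were sequenced with 150-bp paired-end reads. The authors quantified them with Salmon 1.10.2 on mm10, obtained gene values by tximport, and deposited FPKM, by a formula and annotation not given in the sources used here. The authors also deposited log2 fold changes and adjusted p-values from DESeq2 1.44.0, which were not used. Low FPKM are noisier than high ones, and no counting interval can be given.

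Libraries were grouped by their titles. limma 3.58.1 in R 4.3.3 (eBayes with trend) was run on log2(FPKM + 0.1) for the 12148 genes whose mean reached 0.5 FPKM, and the steps were tested on simulated data. Fold changes on this scale understate those of low genes. Isoform ratios were compared with exact permutation tests. Positions and transcripts come from GENCODE M21 and promoters from RefSeq (GRCm38.p6). Python 3.11.15, pandas 2.3.3, numpy 2.4.6 and matplotlib 3.10.9 were used.

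All 10 members are named, with Nrip1, the extremes of each list, defining cell markers and the 5 nearest profiles. Members, lists, motifs and tests were chosen with earlier results of these data known. Alternatives were the pseudocount (1 or 0.01), the FPKM minimum (none or 1), median-of-ratios or TPM scaling, eBayes without trend or robust, a replicate block, each library left out, and a transcript length adjustment added after seeing the data.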

Additional observations from a re-analysis of the deposited data

How the results depend on the processing

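No member and no other listed oxidase gene was called under any of the 15 alternatives. The median-of-ratios alternative could not differ from the main fit, because every library already had the same factor. Rescaling to TPM turned the sign of Cox4i1 (-0.0087), Cox5b (-0.26), Cox6a2 (-0.15), Cox7a1 (-0.11), Cox7a2 (-0.11), Cox8a (-0.0037), Cox8b (-0.11) and Cox6b1 (-0.23), through the shift of -0.29 in the median of all genes. Cox5b was also below 0 without WT control replicate 2 and without labelled replicate 1, within a range of -0.087 to 0.158 over single libraries left out, and Cox6b1 without labelled replicate 1, within a range of -0.020 to 0.159. The difference in the Cox7a1 to Cox7a2 ratio, -0.01, lies near 0 and ranged from -0.062 to 0.040 when single libraries were left out, and the other 3 ratio differences kept their sign. The 55 calls over all genes (45 higher, 10 lower) became 93 after rescaling to TPM (30 higher, 63 lower), 25 without the intensity trend and 22 with the replicate number as a block, and 9 to 71 with 1 library left out. Nrip1 lost its call without the trend (adjusted p = 0.0769 from limma) and with the block (adjusted p = 0.128 from limma).

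The groups share replicate numbers 1 and 2, but no source states that same-numbered libraries come from a shared litter or batch. Deviations of same-numbered libraries correlated at 0.06 and 0.10 across genes, and those of differently numbered libraries at -0.10 to 0.03. The deviations of the labelled libraries mirror each other, because that group has only replicates 1 and 2. These correlations are therefore not independent of each other. With this block the difference in the Cox7a1 to Cox7a2 ratio was 0.0084, WT control replicate 3 added nothing to the estimates, and no call on a member changed. Depth is unknown, so how far it limits Cox4i2, near 2 FPKM, cannot be stated.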
